A study of Vitis vinifera with 156 samples.

Results

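The 150 genes described here are those whose transcripts fell with time at each of 3 constant cold temperatures in dormant grapevine buds, 2, 7 and 11 °C. They were taken from a table of 42413 genes, of which 30267 had a count in any library. Abundance is given as CPM, the counts of a gene scaled to a library total of 1000000, and 7171 genes reached an average CPM of 10 in the 34 libraries used for the choice. At each of the 3 temperatures the mean of log2(CPM + 1) over days 13 and 20 was subtracted from the mean over days 55 and 69. The 150 genes whose largest of these 3 changes was lowest were kept. The genes were thus chosen by their measured change at 2, 7 and 11 °C, and the fall at 2, 7 and 11 °C between those days is a description and not a finding.

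The buds were of Cabernet Sauvignon, a wine grape cultivar of Vitis vinifera, and the grapevine is called endodormant in the study's title. Pretreatment buds were taken at day 0, and buds held at constant 2, 4, 7 or 11 °C were sampled on 8 days from day 7 to day 69, with a constant 22 °C series that ended at day 55. Other buds spent their first 26 days at 2, 7 or 11 °C and then went to 7 °C with a swing of 5 °C to either side, with sampling on days 34, 41, 55 and 69. They make up the fluctuating arms after 2, 7 and 11 °C. This gave 52 groups of 3 libraries, each group 1 arm on 1 day, in a single cultivar. The labels do not say whether the 3 libraries of a group came from separate vines, and the 3 pretreatment libraries carry 1 sample number with a letter added in their names, so p-values measure the spread between these libraries, which may be technical.

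Total counts ran from 27485 to 7138863 per library with a median of 2228888, and the 10 libraries under 500000 counts were left out, which leaves 146. The libraries left out were 1 each of 2 °C day 13, 4 °C day 41, 7 °C day 13, 22 °C day 26, the arm after 2 °C on day 55 and the arm after 7 °C on day 34, and 2 each of 11 °C day 7 and 22 °C day 55. Each library name starts with First or Second, taken here as the library set. All pretreatment, 2, 7 and 11 °C libraries are First, all 4 °C and fluctuating libraries are Second, and 22 °C changes from First to Second at day 26. Tests were therefore kept within 1 set, or carry the set as a term at 22 °C.

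Endodormancy is a state in which a bud does not grow even in mild conditions, because of signals within the bud itself. Prolonged exposure to low but not freezing temperature, called chilling, releases it over weeks, and the same temperatures drive cold acclimation, the gain of freezing tolerance. Both are known to involve broad and ordered changes in bud transcripts. The table gives its lines no gene identifiers, so which functions these genes have was not analysed here, no pathway or cell type marker list could be used, and genes are named by their line number, counted from 1 after the header.

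At the temperatures that defined the set, the median change of the 150 genes was -1.52 at 2 °C, -1.95 at 7 °C and -1.71 at 11 °C, on the log2(CPM + 1) scale. All 7171 genes past the CPM minimum had medians of -0.11, -0.02 and 0.03. Single genes ranged from -3.69 to -1.07 at 2 °C, from -4.46 to -1.06 at 7 °C and from -4.73 to -1.06 at 11 °C. The smallest of a gene's 3 falls was the one at 2 °C for 80 genes, at 11 °C for 47 and at 7 °C for 23. The edge of the set is not a gap in the values: the last gene inside had a largest change of -1.0646 and the first outside -1.0629. The genes were mostly of moderate abundance, with a median mean level of 26.6 CPM against 30.02 CPM for the 7171 genes, and a range from 10.1 to 5912 CPM.

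At constant 4 °C, a temperature not used in the choice, transcripts of all 150 genes were lower on days 55 and 69 than on days 13 and 20. Of these, 76.7% passed the test as lower and 0 genes as higher (edgeR's quasi-likelihood test, Benjamini-Hochberg adjusted p under 0.05), against 5.45% of the 10303 genes tested called lower and 3.64% called higher. The median log2 fold change of the 150 genes was -1.85, a 3.62-fold fall, with quartiles of -2.54 and -1.42, while the median of all tested genes was -0.01. The other genes, 35 of the 150, did not pass. Of all 150 genes 140 had an unadjusted p under 0.05, beside 2423 of the 10303 genes tested.

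The libraries show the same separation without a model. The relative level used here is the median log2(CPM + 1) of the 150 genes minus that of the 7171 genes in the same library. At 4 °C it was 0.94, 1.13 and 0.49 in the 3 libraries of day 13, and 0.79, 0.28 and 0.28 in those of day 20. On day 55 it was -1.24, -1.58 and -0.71, and on day 69 it was -1.28, -1.08 and -1.19. All 6 early libraries lay above the 7171 genes' median and all 6 late libraries below it, with no overlap. Gene by gene, the 6 early libraries all lay above the 6 late ones in 96 of the 150 genes, against 5.52% of the 7171 genes. The 150 genes together took 3.67 ± 0.56% (SD, n = 6 libraries) of all counts early and 0.835 ± 0.290% (SD, n = 6) late. In RNA from whole buds, fewer cells of a type and less RNA per cell cannot be told apart.

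**Figure D1:**
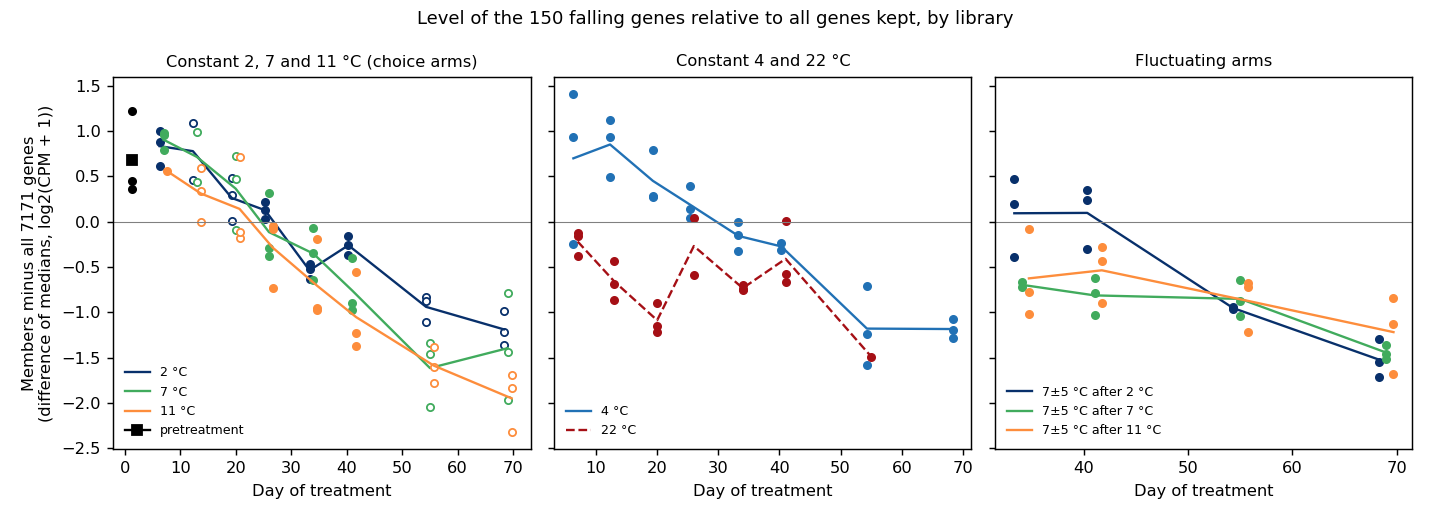
Relative level of the 150 genes (median log2(CPM + 1) of the 150 genes minus that of all 7171 genes past the CPM minimum) against the day of treatment, 1 point per library, lines through group means, points of different arms set slightly apart on the day axis. Open points are the libraries used to choose the genes; the 4 °C series runs from a mean of 0.70 on day 7 to -1.18 on day 69, and the 22 °C libraries (dashed line) start at -0.22 and do not follow a steady course across the change of library set at day 26.

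The count at 4 °C depends on single libraries more than the direction does. Without the libraries of replicate 2 it was 17, where 0.182% of all tested genes were called lower, without those of replicate 1 it was 56, and without those of replicate 3 it was 90.7% of the 150 genes. The median log2 fold change stayed between -2.24 and -1.74. Here and below, counts from fits with fewer libraries or other settings are a description where no share over all genes is given. The share of counts in the 10 highest genes of a library moved with the comparison, from 40.5% early to 45.5% late, and with that share as a covariate 87 of the 150 genes were called lower and 3 higher, beside 7.7% and 8.73% of all genes tested in that fit, and 21 had a change above 0.

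Gene 10814 shows the course in an extreme case. With gene 14628 it was named for the lowest log2 fold changes at 4 °C among the genes called. Its separation at 4 °C is therefore near to what the pick asked for. Its level was 1369, 1987 and 2156 CPM in the 3 pretreatment libraries, which are of another library set than those at 4 °C. At 4 °C it was 601, 837 and 1031 CPM on day 13, and 376, 607 and 825 CPM on day 20. On day 55 it was 47.3, 39.4 and 48.2 CPM, and on day 69 it was 29.5, 18.4 and 20.8 CPM. Every late library lay far below every early one, with a log2 fold change of -4.35 ± 0.30 (SE) and an adjusted p of 2.18e-05 by edgeR's quasi-likelihood test. Between them lay 194 ± 68.6 CPM (SD, n = 3) on day 26 and 79.7 ± 28.4 CPM (SD, n = 3) on day 34, so most of its fall at 4 °C was over by day 34.

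Gene 14628 had the lowest fitted change at 4 °C and is a gene of low abundance. Its level there was 10.3, 7.63 and 14.2 CPM on day 13, and 3.26, 6.35 and 13.995 CPM on day 20. On each of days 55 and 69 a single count was found in 1 of the 3 libraries and none in the other two. Summed over libraries, 90 counts on day 13 and 71 on day 20 stood against 2 on the late days, a ratio of 69.4 per total count with an exact interval at 95% from 18.9 to 578, which covers counting error only. The fitted log2 fold change of -5.59 ± 0.75 (SE, adjusted p 0.000827) depends on the small count edgeR adds before taking logs and is no bound, and without replicate 2 the adjusted p was 0.07.

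The most abundant of the 150 genes, singled out after its values were seen, held 12612 ± 2794 CPM (SD, n = 3) at 4 °C on day 13 and 13188 ± 4802 CPM on day 20, which is 1.26% and 1.32% of all counts. It fell to 2464 ± 1053 CPM on day 55 and 1834 ± 493 CPM on day 69, with a log2 fold change of -2.50 ± 0.31 (SE) and an adjusted p of 0.000466 by edgeR's quasi-likelihood test. In pretreatment buds it had a mean of 12385 CPM, in the range of days 13 and 20 at 4 °C. The pretreatment libraries are First and those at 4 °C Second, so this is a description across library sets.

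At 2, 7 and 11 °C the libraries of days 7, 26, 34 and 41 took no part in the choice. Over those days 70.7% of the 150 genes passed the test as falling and 0 genes as rising when the slopes of the 3 temperatures were averaged, against 5.09% of the 13700 genes tested called falling and 4.33% called rising. The other 44 genes did not pass. The median slope was a log2 change of -0.42 per 10 days, with all but 9 slopes below 0, and the median of all tested genes was 0.05. These days lie between or just before the ones that chose the genes, in the same arms and library set, so a fall over them is near to what the choice asked for.

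Temperature by temperature, the median slope per 10 days was -0.38 at 2 °C, -0.48 at 7 °C and -0.44 at 11 °C. At 2 °C 46 of the 150 genes passed as falling (1.5% of all tested genes), at 7 °C 85 (4.34%) and at 11 °C 44 (1.17%). None of the 150 passed as rising at any of the 3, where 0.818%, 2.47% and 0.146% of all tested genes did. The relative level at 7 °C went from 0.91 ± 0.10 (SD, n = 3) on day 7 to -0.12 ± 0.38 on day 26, -0.35 ± 0.29 on day 34 and -0.76 ± 0.31 on day 41, so the 150 genes went from above to below the median of all genes. At 2 °C it was 0.83 ± 0.20, 0.13 ± 0.10, -0.54 ± 0.08 and -0.26 ± 0.11 (SD, n = 3 each) on those days. At 11 °C it was 0.56 in the single day 7 library and -0.29 ± 0.39, -0.71 ± 0.44 and -1.05 ± 0.44 (SD, n = 3 each) after it. The mean of day 41 was the lowest of these 4 days at 7 and 11 °C and not at 2 °C, where day 34 was lower. Without replicate 2 the counts at 2 and 11 °C were 4 and 0, and without replicate 3 those at 2 and 7 °C were 14 and 56.

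The calls rest on day 7. Without it the average of the 3 temperatures gave 0 of the 150 genes and 0 of 12143 genes called falling by edgeR's quasi-likelihood test, although all but 13 of the 150 slopes stayed below 0, their median stayed at -0.39 per 10 days and 61 genes had an unadjusted p under 0.05. Only 1 library of 11 °C day 7 passed the depth minimum. Restricted to libraries of at least 1000000 counts, which leaves no 2 °C library of day 7, 36 of the 150 genes passed on the average and 0 at 2 °C, and without replicate 2 the average gave 19.

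Gene 10814 fell over these unused days too, by 0.95 ± 0.07 (SE) on the log2 scale per 10 days with an adjusted p of 9.82e-13. At 7 °C its mean went from 1479.6 ± 345 CPM on day 7 to 238 ± 40.9 CPM on day 26, 154.2 ± 8.2 CPM on day 34 and 87.2 ± 27.1 CPM on day 41 (SD, n = 3 each). At 2 °C it was higher on the same days, at 1573 ± 383, 705 ± 218, 379.6 ± 163.5 and 453 ± 229.6 CPM. Gene 14628 fell by 0.70 ± 0.11 (SE) per 10 days on the average of the 3 temperatures, with an adjusted p of 2.48e-05.

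**Figure D2:**
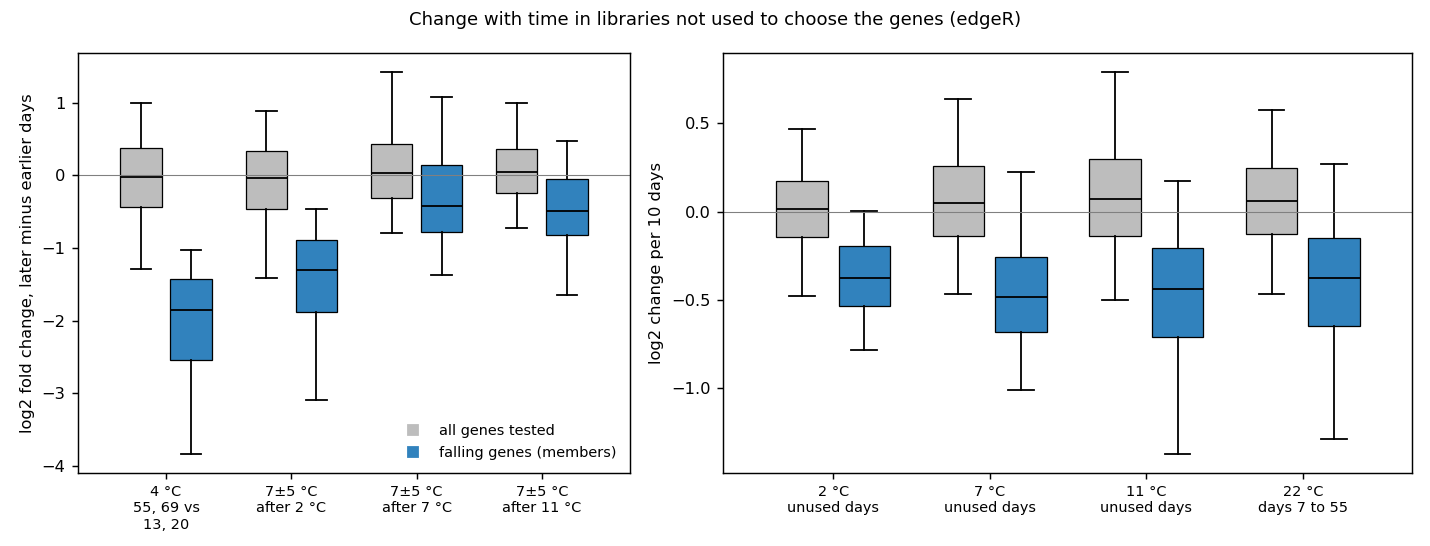
Change with time of the 150 genes (blue) and of all genes tested (grey) in libraries not used in the choice, as log2 fold change of later against earlier days at 4 °C and in the fluctuating arms (left) and as log2 change per 10 days at 2, 7, 11 and 22 °C (right). Boxes run between the quartiles with the median as a line, and whiskers reach from the 5th to the 95th percentile; the medians of the 150 genes are -1.85 at 4 °C, -1.30 after 2 °C, -0.42 after 7 °C and -0.48 after 11 °C.

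The level before treatment was above that of days 34 and 41 for many of these genes. Days 34 and 41 at 2, 7 and 11 °C were compared with the pretreatment buds, in libraries the choice did not use. Lower levels passed the test in 79 of the 150 genes (52.7%) and a higher level in 1, against 8.49% lower and 3.7% higher among the 12290 genes tested. The median log2 fold change was -1.27, a 2.41-fold difference, against -0.03 for all tested genes. Over the means of days 0, 7, 26, 34 and 41, taken across the 3 temperatures, 74 of the 150 genes had their highest level on day 0, 55 on day 7, 14 on day 26, 6 on day 34 and 1 on day 41. The median level was 5.55 on day 0 and 5.56 on day 7, on the log2(CPM + 1) scale, and 4.13 on day 41. The lowest level fell on day 41 for 88 genes and on day 0 for 24. No such counts by day were made over all genes, so whether they are particular to the 150 genes was not tested. Day 0 rests on the 3 pretreatment libraries, which carry 1 sample number. The relative level of the 3 pretreatment libraries was 1.23, 0.36 and 0.45, and the 150 genes held 3.71 ± 0.14% of all counts in them (SD, n = 3). Gene 10814 was 3.42 ± 0.29 (SE) lower on the log2 scale at days 34 and 41 than before treatment, with an adjusted p of 6.07e-08.

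In the fluctuating arms, days 55 and 69 were compared with days 34 and 41, since sampling there began after the move at day 26. On the average of the 3 arms 66 of the 150 genes passed as lower and 0 as higher, against 1.4% and 0.639% of the 12671 genes tested. The median log2 fold change was -0.70, a 1.63-fold fall, with 146 of 150 changes below 0. Of the 66 genes, 64 had also passed at 4 °C, which is 96.97% of the 66 and 55.7% of those called at 4 °C. Among all 150 genes 76.7% passed at 4 °C and 44% in the average of the fluctuating arms. Without replicate 1, 2 or 3 the count passing as lower in the average of the arms was 24, 19 or 18. The shares over all genes in those fits are not given, so these counts are a description only. With the share of the 10 highest genes as a covariate it was 67.3% of the 150 genes, beside 3.17% of all tested genes.

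The 3 fluctuating arms did not start from the same place. On days 34 and 41 the relative level was 0.10 ± 0.35 (SD, n = 6 libraries) after 2 °C, -0.77 ± 0.16 (n = 5) after 7 °C and -0.58 ± 0.37 (n = 6) after 11 °C. On days 55 and 69 it was -1.29 ± 0.34 (SD, n = 5), -1.15 ± 0.35 (n = 6) and -1.05 ± 0.38 (n = 6). The early libraries after 2 °C ranged from -0.39 to 0.47, all above those after 7 °C at -1.03 to -0.62 and overlapping those after 11 °C at -1.02 to -0.08. The late libraries of all 3 arms overlapped.

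After 2 °C 51 of the 150 genes passed as lower (0.687% of all tested genes) with a median log2 fold change of -1.30, a 2.47-fold fall, and all but 1 of the changes were below 0. After 7 °C 1 gene passed (0.00789%) with a median of -0.42 and 45 changes above 0, and after 11 °C 7 genes passed (0.0947%) with a median of -0.48 and 31 changes above 0. All earlier libraries lay above all later ones in 58 of the 150 genes after 2 °C (1.9% of the 7171 genes), in 3 after 7 °C (0.377%) and in 6 after 11 °C (0.181%). The difference itself, the fall after 2 °C minus the mean fall after 7 and 11 °C, was tested as a contrast chosen after the data were seen. The median difference was -0.82, with an unadjusted p under 0.05 in 69 of the 150 genes and in 2188 of the 12671 tested. The difference passed as a larger fall after 2 °C in 4 of the 150 genes (0.0474% of all tested genes). Without any 1 replicate number that count was 0, as were the counts after 7 °C and after 11 °C. The count after 2 °C was 36 without replicate 1, 0 without replicate 2, where 82 genes had an unadjusted p under 0.05, and 1 without replicate 3.

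The share of counts in the 10 highest genes was 42.2% early and 42.6% late after 2 °C, but fell from 45.1% to 39.9% after 7 °C and from 42.7% to 39.3% after 11 °C. Within groups this share and the relative level of the 150 genes moved against each other, with a correlation of -0.452 over the 146 libraries, given as a description. With the share as a covariate 85, 0 and 11 of the 150 genes were called lower after 2, 7 and 11 °C, beside 1.81%, 0% and 0.142% of all tested genes, and after 7 °C 46 of the 150 had an unadjusted p under 0.05.

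Gene 10814 fell in the average of the fluctuating arms, with a log2 fold change of -1.46 ± 0.25 (SE) and an adjusted p of 0.000762 by edgeR's quasi-likelihood test. After 2 °C it went from 335 ± 78.5 CPM on day 34 to 76.7 ± 4.72 CPM on day 69, and after 11 °C from 126.04 ± 75.8 to 27.2 ± 6.38 CPM (SD, n = 3 each). After 7 °C it went from 150.2 ± 48.2 CPM (SD, n = 2) to 52.7 ± 31.8 CPM (SD, n = 3), and it passed in none of the 3 arms alone, with adjusted p-values of 0.0789, 0.381 and 0.164 after 2, 7 and 11 °C. The most abundant gene fell by 1.95 ± 0.25 (SE) on the log2 scale, with an adjusted p of 2.64e-05, and passed on its own after 2 °C and after 11 °C. Gene 14628 had a change of -1.15 ± 0.41 (SE) that did not pass, with an adjusted p of 0.16.

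Whether the fluctuating arms fell less than constant 4 °C between the same days was tested as a difference. It passed in 0 of the 150 genes and in 0 of 12782 genes by edgeR's quasi-likelihood test, where 27 of the 150 genes and 2208 of all genes had an unadjusted p under 0.05, and DESeq2 called 2 of the 150. The median difference was 0.14 with quartiles of -0.18 and 0.66, so neither a smaller nor a larger fall than at 4 °C was shown.

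At 22 °C the slope over days 7 to 55, with the library set as a term, was below 0 for all but 19 of the 148 genes that could be tested. Only 1 passed as falling and 0 as rising, against 0.0163% of the 12288 genes tested. The median slope was a log2 change of -0.38 per 10 days, beside 0.06 for all tested genes. An unadjusted p under 0.05 was found in 42 of the 148 genes, beside 896 of the 12288 tested. The count passing as falling was 10 without replicate 2 and 0 without replicate 3, and DESeq2 called 8.

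Within each library set the course differed. In the First set the relative level was -0.12, -0.16 and -0.38 on day 7, -0.43, -0.86 and -0.68 on day 13, -1.16, -0.89 and -1.22 on day 20 and -0.58 in the single First library kept on day 26. The libraries of day 20 all lay below those of days 7 and 13, and the library of day 26 lay above all of day 20. In the First set alone 8 of the 140 genes tested passed as falling, beside 0.152% of all genes. In the Second set it was 0.05 on day 26, -0.76, -0.74 and -0.70 on day 34, -0.66, -0.58 and 0.01 on day 41 and -1.49 in the single library of day 55 that passed the depth minimum. In the Second set alone 0 passed by edgeR's quasi-likelihood test, with 34 of the genes at an unadjusted p under 0.05. Without the set term 25 genes passed as falling, beside 2.63% of all genes, and 7 as rising. At 22 °C set and time are linked through day 26 alone, with 1 library of each set.

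On day 7 the 22 °C buds were already below the cold ones. The relative level was -0.22 ± 0.14 (SD, n = 3) at 22 °C, against 0.83 ± 0.20 at 2 °C and 0.91 ± 0.10 at 7 °C in the same library set, with no overlap between the libraries of 22 °C and those of either temperature. No fit of these day 7 groups was made.

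The slope from day 34 to day 55 at 22 °C was set against that at 4 °C in the Second set. The difference passed in 0 of the 150 genes and in 0 of 12754 genes by edgeR's quasi-likelihood test and in 0 of the 150 by DESeq2, with 8 of the 150 genes and 414 of all genes at an unadjusted p under 0.05. The median difference was 0.22 per 10 days with quartiles of -0.30 and 0.74. Day 55 at 22 °C holds 1 library, and without replicate 2, which leaves no 22 °C library on day 55, 2 of the genes passed with a lower slope at 22 °C and 11 with a higher one.

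Gene 36568 and gene 36319 had the highest slopes of the 148 genes at 22 °C, and neither passed. For gene 36568 the slope was 0.78 ± 0.51 (SE) per 10 days with an adjusted p of 0.769. Its level at 22 °C never exceeded 3.05 CPM in any library of days 7 to 20, reached 16.4 CPM in 1 library of day 26 and 16.6 CPM in 1 of day 41, and was 0.58 CPM in the day 55 library. At 4 °C the same gene fell from 49.1, 91.4 and 113.1 CPM on day 13 to 3.94, 8.18 and 8.47 CPM on day 69, with a log2 fold change of -3.16 ± 0.44 (SE) between early and late days and an adjusted p of 0.000952.

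For gene 36319 the slope at 22 °C was 0.74 ± 0.52 (SE) per 10 days with an adjusted p of 0.796. Its level at 22 °C was 2.52 to 34.6 CPM in the 9 libraries of days 7 to 20. It was 180.5, 189.6 and 212 CPM on day 34, 4.73, 449 and 485 CPM on day 41 and 9.92 CPM in the day 55 library. Without the set term the slope was 1.33 and passed with an adjusted p of 0.0166. This gene also varied widely between libraries of 1 group elsewhere, from 1.08 to 140.8 CPM before treatment and from 3.64 to 95.9 CPM at 4 °C on day 20, and its change at 4 °C of -1.16 ± 0.78 (SE) did not pass, with an adjusted p of 0.405.

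**Figure D3:**
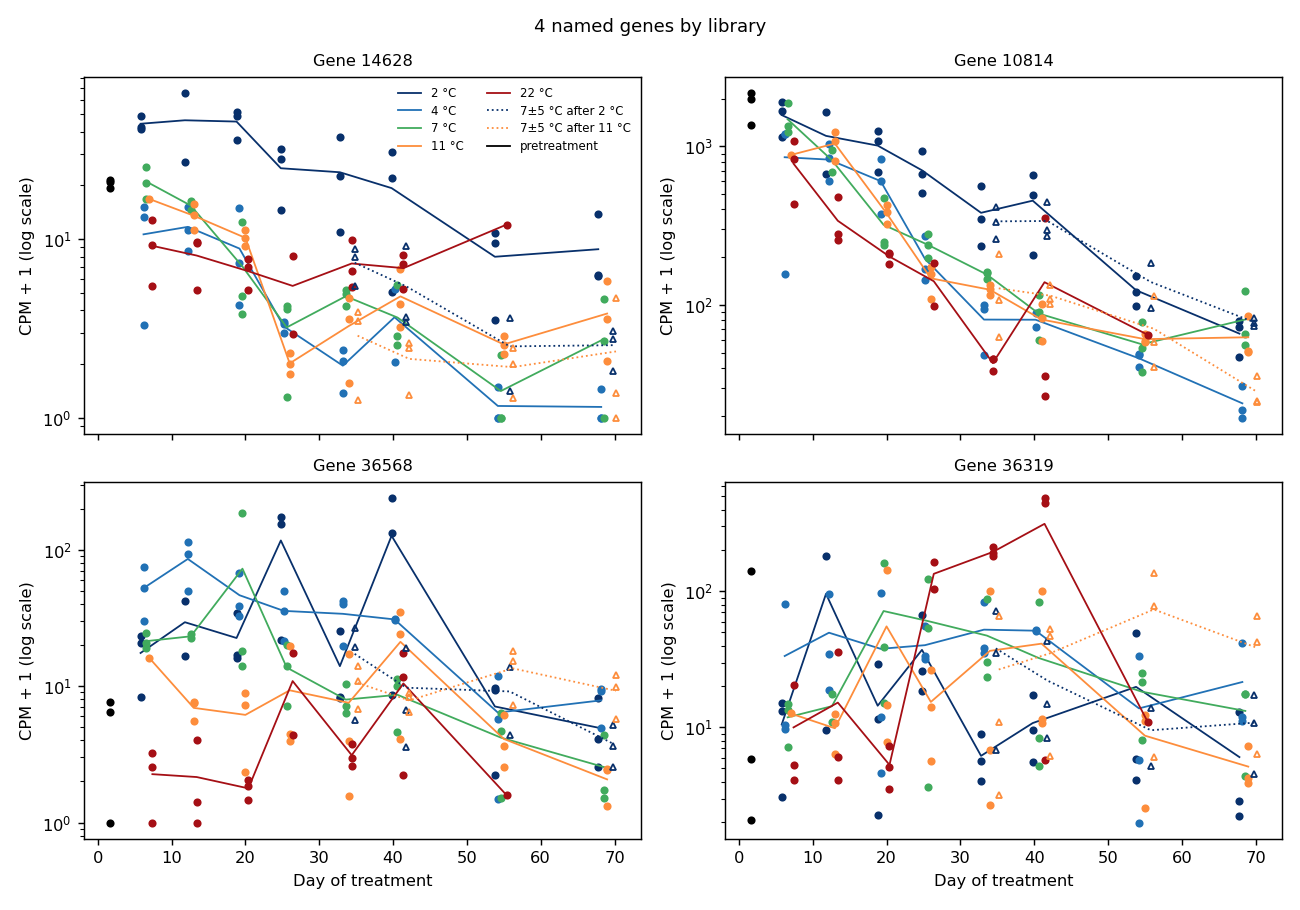
Level of the 4 named genes in CPM + 1 on a log axis against the day of treatment, 1 point per library and lines through group means, with open triangles and dotted lines for the fluctuating arms after 2 and 11 °C and the arm after 7 °C left out for clarity. Gene 10814 ends far below its first level in every arm shown, gene 14628 reaches 0 counts in 4 of the 6 late 4 °C libraries, and gene 36319 spreads from 1.08 to 140.8 CPM among the pretreatment libraries.

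The level of these genes at a given time also differed between temperatures, and not in 1 direction. On days 26, 34 and 41, 55 of the 150 genes (36.7%) were higher at 2 °C than at 11 °C, beside 11.8% of the 11878 genes tested. Another 12 were lower at 2 °C, beside 12.8%, and 83 were not called. The median log2 fold change was 0.39 against -0.04 for all tested genes. Between 4 °C and 22 °C, on days 34, 41 and 55 and in other libraries, 45 genes (30%) were higher at 4 °C, beside 10.1% of the 14407 genes tested, and 13 were lower, beside 11.2%. The median there was 0.68 against -0.06, and the count of higher genes was 17 without replicate 1 and 23 without replicate 3. The 150 genes passed the choice and its CPM minimum in cold libraries alone, unlike the 14407 genes. A gene low at 22 °C could thus enter through its cold level. The excess at 4 °C is therefore not shown to be particular to falling genes. Of the 150 genes that rose most steadily by the mirrored choice, 33 were higher at 4 °C than at 22 °C and 11 lower. Between 2 and 11 °C these rising genes leaned the other way, with 18 higher at 2 °C and 46 lower.

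The 2 comparisons share no library. Of the genes higher at the colder temperature 20 were so in both, which is 36.4% of the 55 and 44.4% of the 45. Among all 150 genes 30% were higher at 4 °C and 36.7% at 2 °C, so the overlap was not far above these shares. A further 2 genes were lower at the colder temperature in both, 4 were higher at 2 °C but lower at 4 °C, and 3 were lower at 2 °C but higher at 4 °C. Gene 14628 is one of the 4. It was higher at 2 °C than at 11 °C by 3.37 ± 0.38 (SE) on the log2 scale with an adjusted p of 5.30e-06, and lower at 4 °C than at 22 °C by a log2 fold change of -2.79 ± 0.57 (SE) with an adjusted p of 0.00307. Gene 36568 was higher at the colder temperature in both, with log2 fold changes of 2.67 ± 0.60 (SE, adjusted p 0.00297) and 3.36 ± 0.76 (SE, adjusted p 0.00581). The most abundant gene was also higher in both, by 2.55 ± 0.33 and 3.07 ± 0.89 (SE) on the log2 scale.

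**Figure D4:**
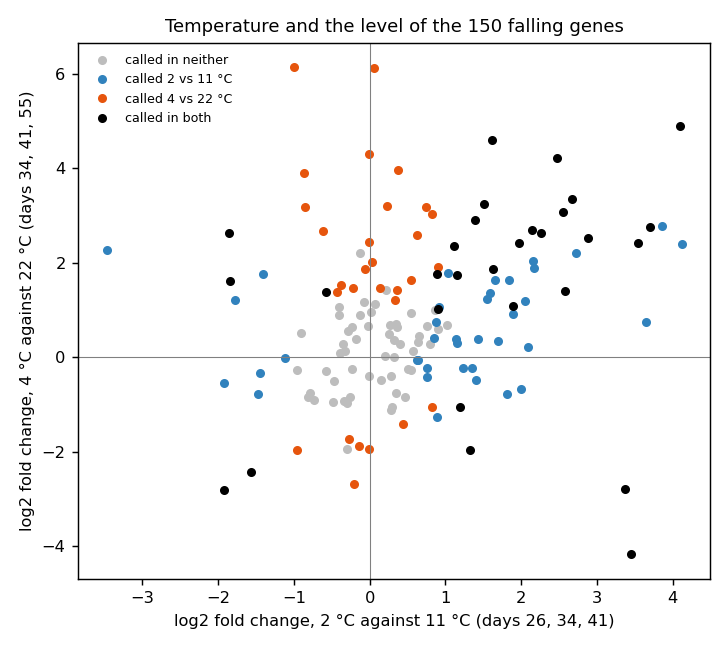
Log2 fold change of each of the 150 genes at 2 °C against 11 °C (days 26, 34 and 41) and at 4 °C against 22 °C (days 34, 41 and 55), with colours for the comparisons in which a gene was called. Points in the upper right are genes higher at the colder temperature both times; of the genes called in both (black), 20 lie there, 2 in the lower left 4 in the lower right and 3 in the upper left.

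The 55 genes held higher at 2 °C than at 11 °C had a median log2 fold change of -2.13 between early and late days at 4 °C, and 52 of them passed as lower there. The 83 genes with no call between 2 and 11 °C had a median of -1.76, with 59 passing. The 12 genes lower at 2 °C had a median of -1.46, with 4 passing. At 22 °C the median slopes of the 3 classes were -0.37, -0.37 and -0.57 per 10 days.

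Several of the tests used no library of the choice and can be set side by side. Of the genes that passed at 4 °C, 99 also passed over the unused days of 2, 7 and 11 °C. That is 86.1% of the former and 93.4% of the latter. Among all 150 genes 70.7% passed over the unused days and 76.7% at 4 °C, so a large overlap was to be had from these shares alone. At 4 °C, over the unused days and in the fluctuating arms alike, 58 passed. Among the 150 genes 26 passed in none of the 3. Over the 20 groups of 4 °C and the fluctuating arms, the correlation of group means between any pair of the 150 genes had a median of 0.677, beside 0.117 for pairs of the 7171 genes and 0.626 for pairs of the 150 genes that rose most steadily by the mirrored choice, as a description of groups that share time as a factor.

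**Figure D5:**
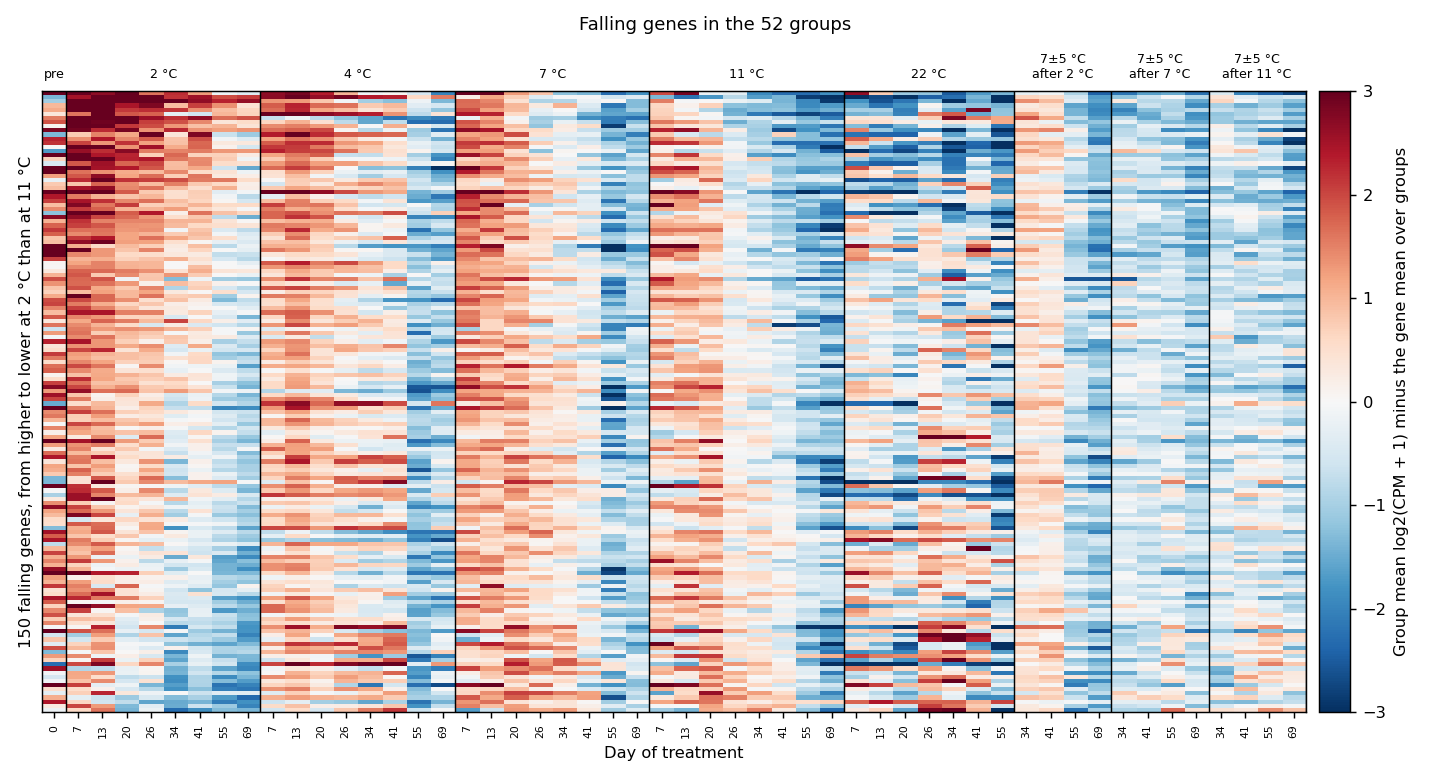
Group mean log2(CPM + 1) of each of the 150 genes minus its mean over the 52 groups, with groups as columns by arm and day and genes as rows ordered from higher to lower at 2 °C than at 11 °C; red is above and blue below the gene's mean. Rows near the top stay above their mean for longer at 2 °C, which follows from the ordering. They do not all lie low at 22 °C, since 4 genes called higher at 2 °C than at 11 °C were called lower at 4 °C than at 22 °C. Most rows at 2, 4, 7 and 11 °C pass from red on day 13 to blue on day 69. At 2, 7 and 11 °C this is near to what the choice asked for.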

How the data were processed

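RNA was extracted from whole buds with a plant column kit and read at the 3′ end by Lexogen QuantSeq on a NextSeq500 with a read length of 85 bases, according to the labels' protocols. The authors deposited raw counts for each gene as whole numbers, 1 column per library, with 0 columns unused. The submitters' processing notes name FastQC, STAR and DESeq2 without role or version; genome build, annotation, counting tool, strand setting and molecular identifiers are not given in the sources used here. A 3′ count does not grow with transcript length, and near-identical copies of a gene cannot be told apart.

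Groups were taken from the labels, and the 150 genes were chosen as described above from CPM over library totals. The genes, lists and comparisons were chosen with earlier results of these data known. Each test was fitted on the whole table with edgeR 4.0.16 in R 4.3.3 (TMM, filterByExpr, estimateDisp, glmQLFit, glmQLFTest) on the libraries compared only, day as a factor or as a number per 10 days, with p-values adjusted by Benjamini-Hochberg over all genes tested. The threshold for a call was an adjusted p of 0.05. The procedure was also run on simulated data in which all genes had the same spread. That is a simpler setting than these libraries, so the run cannot vouch for the calls made here. Where a count at an unadjusted p under 0.05 stands without the count over all genes, it is a description only. The same holds for calls in an alternative fit that stand without the share over all genes. Errors are the SE of the fit or the SD over libraries.

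With no identifiers, the rule allowed 4 names: the 2 genes called at 4 °C with the lowest log2 fold change and the 2 with the highest slope at 22 °C. The alternatives were DESeq2 1.42.0, RLE scaling, no filter on low counts, other depth minimums, the replicate number as a block, leaving out each replicate number, other set and day choices, and, chosen after seeing the data, the percent of counts in the 10 highest genes as a covariate. Replicate numbers come from the labels. Libraries with the same number did not deviate together from their groups, with mean correlations from -0.0364 to 0.0558 in the 4 sets of arms compared, so the numbers were not taken to pair libraries.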

Additional observations from a re-analysis of the deposited data

Results flagged for a closer look

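The fall from days 34 and 41 to days 55 and 69 was larger in the fluctuating arm after 2 °C than on average after 7 and 11 °C in 4 of the 150 genes by a test of the difference itself (edgeR's quasi-likelihood test, adjusted p under 0.05), and the difference had that sign in all but 16 of the 150 genes, with a median of -0.82 on the log2 scale. The share of counts in the 10 highest genes of a library also moved differently between these arms, and with it as a covariate 5 genes passed, beside 0.0474% of all tested genes. The contrast was chosen after the data were seen, and 0 genes passed in a fit with a replicate block. Without any 1 replicate number 0 genes passed either, with 43 to 61 of the 150 genes at an unadjusted p under 0.05.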

How the results depend on the processing

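All medians of the 150 genes kept their sign under every alternative tried except that of the difference between the fluctuating arms and 4 °C, which ran from -0.11 to 0.28. The calls moved more. They are given here as the percent of the 150 genes tested in each fit, of which 140 to 150 could be tested at 22 °C. The share of all genes called moved as well, as at 4 °C from 5.45% in the main fit to 0.182% without replicate 2. Where that share is not given, the percents are a description and not a result about the 150 genes. Leaving out 1 replicate number at a time, the share called falling ran from 11.3% to 90.7% at 4 °C, from 0% to 6.99% at 22 °C, from 12% to 16% in the average of the fluctuating arms, from 0% to 24% after 2 °C, and was 0% after 7 °C, after 11 °C and for the difference between arms. Over the unused days it ran from 12.7% to 70.7% on the average, from 2.67% to 25.3% at 2 °C, from 37.3% to 39.3% at 7 °C and from 0% to 30% at 11 °C. The slope difference between 22 and 4 °C ran from 0% to 8.72%, the latter with no 22 °C library on day 55. The share higher at 2 than at 11 °C ran from 24.7% to 38.7%, and that higher at 4 than at 22 °C from 11.3% to 35.6%. The share lower than in pretreatment buds ran from 39.3% to 46%, while the difference between the fluctuating arms and 4 °C stayed at 0%.

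DESeq2 called 5.41% at 22 °C, 52%, 4% and 15.3% after 2, 7 and 11 °C, 12.7% for the difference between arms and 1.33% for the difference from 4 °C. RLE scaling gave 0% after 7 °C and 0.667% for the difference from 4 °C. No filter on low counts gave 1.33% at 22 °C, 57.3%, 6.67% and 12.7% after 2, 7 and 11 °C, 32.7% for the difference between arms and 9.33% for the difference from 4 °C. With all libraries the shares after 7 and 11 °C were 0% and 2%. Libraries of at least 1000000 counts gave 0% after 7 °C, 24% over the unused days and 0% at 2 °C alone. Without day 7 the shares over the unused days were 0% on the average and at each of 2, 7 and 11 °C. At 22 °C they were 17.5% with no set term, 5.71% among First libraries and 0% among Second ones. The share of the 10 highest genes as a covariate gave 67.3% on the average of the fluctuating arms and 56.7%, 0% and 7.33% after 2, 7 and 11 °C. Fewer libraries or days entered some of these fits, and otherwise the cause was not tested. Over all genes, DESeq2 called 32 falling and 16 rising at 22 °C, where edgeR called 2 and 0, and 16 falling and 21 rising after 7 °C, where edgeR called 1 and 0.

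A replicate block in the fit gave 62% at 4 °C, 1.35% at 22 °C, 42% in the average of the fluctuating arms, 0% for the difference between arms and 72% over the unused days, and the data showed no pairing by number. The same choice of genes made without 1 replicate number returned 76% to 81.3% of the 150. After the depth minimum 1 library remained at 11 °C on day 7 and 1 at 22 °C on day 55.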

Other observations

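The 150 genes at the other end of the same rule were those whose smallest change at 2, 7 and 11 °C was highest. At 4 °C they passed as higher in 84 cases and as lower in 0, beside 3.64% and 5.45% of all genes tested. Their median log2 fold change was 1.16, beside the -1.85 of the falling genes. In the average of the fluctuating arms 16 of the rising genes passed as higher, beside 0.639% of all genes tested. After 2, 7 and 11 °C 13, 0 and 1 did so, beside 0.363%, 0% and 0.00789%. Over the unused days of 2, 7 and 11 °C 63 of them passed as rising, beside 4.33% of all genes tested.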
